A study of Mus musculus with 30 samples.

Results

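The response of the mouse hind paw to prolactin was set against the response of the dorsal root ganglia (DRG) in the same experiment. For each gene, the log2 change between prolactin (PRL) and vehicle (Veh) libraries in paw was reduced by the same change in DRG, averaged over female and male mice. A positive difference means that PRL libraries stood higher, relative to Veh, in paw than in DRG. Of 22609 annotated genes, 15949 had enough reads to be tested in 24 libraries, and 13087 of these averaged at least 1 CPM in each tissue (CPM, reads of a gene scaled to the library's reads in genes). The libraries were made from rRNA-depleted RNA and form 8 groups of 3, namely PRL and Veh in paw and in DRG of female and of male mice. Another 6 libraries, from females labelled PRL_Sh, were not used here. The mice were C57BL/6J by label, aged 10 to 12 weeks, and received 1 µg prolactin or phosphate-buffered saline under the skin of the sole. Both one injection and a course of 12 daily ones appear in the protocol, without a statement of which a given library followed. The labels give 18 female and 12 male libraries with the PRL_Sh group included, while the series' design text gives 18 males and 12 females. The labels were used. Xist had 1610 to 3787 CPM in libraries labelled female and 0.334 to 6.33 CPM in those labelled male. For 4 genes on the Y chromosome, the values were 0 to 0.194 CPM and 30.3 to 163 CPM, female first. Sex-linked genes thus matched the sex labels of the 24 libraries used here. The labels do not say that the libraries of a group came from separate animals, so every p-value measures only the spread between these libraries.

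Prolactin is a pituitary hormone best known for its role in lactation. Its receptor, a member of the cytokine receptor family, signals through the kinase JAK2 and the transcription factor STAT5, and it is present on sensory neurons, where prolactin can lower the threshold for pain. DRG hold the cell bodies of sensory neurons with satellite glia, Schwann cells and resident macrophages. The hind paw, where the hormone was injected, holds epidermis, dermis, vessels, muscle, immune cells and the nerve endings of those neurons. The series' title is about pain responses that differ by sex and about translation of the prolactin receptor mRNA.

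Paw libraries held 6.87 M to 13.5 M reads in genes and DRG libraries 8.99 M to 13.3 M (12 libraries each), and 41.5% to 55.5% of paw reads against 36.6% to 38.0% of DRG reads mapped to several places. Sensory neuron and epidermal genes matched the tissue labels in all 24 libraries. Some libraries stood apart. Male paw Veh replicate 2 alone set both the 6.87 M and the 55.5%. The other paw libraries had at most 44.8% of reads mapped to several places. Female DRG Veh replicate 1 had a mean of 5.02 log2 CPM over an interferon gene list, against 2.70 to 3.62 in the other DRG Veh libraries. Female paw PRL replicate 3 had a skeletal muscle level of 5.36 log2 CPM, below the 8.16 of the lowest paw Veh library, and held the highest Prlr level of the paw PRL libraries, 98.8 CPM. Muscle genes varied by library in every group, from 5.36 to 11.1 log2 CPM in paw PRL, 8.16 to 10.4 in paw Veh, 3.78 to 8.94 in DRG PRL and 2.59 to 7.22 in DRG Veh. For some lists and counts, values are also given without one of these libraries or with the muscle level as a covariate.

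Some genes known to differ in level between C57BL/6 substrains also differed between PRL and Veh libraries. Nnt, a mitochondrial transhydrogenase that is disrupted in C57BL/6J, had 24.6 to 69.02 CPM (median 37.04) in paw PRL libraries, against 8.91 to 12.9 CPM (median 11.02) in paw Veh libraries. DRG levels of Nnt were 38.6 to 63.3 CPM (median 44.5) in DRG PRL libraries, against 18.9 to 22.3 CPM (median 19.7) in DRG Veh libraries. Wdfy1, which serves in endosomal signalling, had 52.1 to 61.8 CPM (median 57.1) in paw PRL libraries, against 23.9 to 28.8 CPM (median 26.9) in paw Veh libraries. For Wdfy1 in DRG, the values were 80.7 to 88.3 CPM (median 85.8) in DRG PRL libraries, against 27.96 to 35.3 CPM (median 30.1) in DRG Veh libraries. The PRL and Veh ranges of both genes were separate in both tissues. Entpd4, a nucleotidase of the Golgi, fell in both tissues, by 0.94 in paw and 0.89 in DRG on the log2 scale, and Gabra2, a GABA receptor subunit, rose by 1.29 in DRG, the only one of the tissues in which it reached 1 CPM. The labels give one strain for all libraries, and substrain and treatment cannot be told apart in any PRL against Veh value below. A gene that changed alike in both tissues cancels in the paw minus DRG difference. Entpd4 did (difference -0.05 ± 0.10 SE, adjusted p = 0.793), but Nnt, Wdfy1 and Cyfip2 had a called difference. Cyfip2, a regulator of actin whose coding sequence differs between substrains, had 24.9 to 47.6 CPM (median 33.4) in paw PRL libraries, against 36.4 to 55.6 CPM (median 47.8) in paw Veh libraries, with a difference of -0.41 ± 0.12 (adjusted p = 0.0209), and its DRG change of -0.07 ± 0.08 did not pass (adjusted p = 0.781).

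The paw minus DRG difference passed an adjusted p of 0.05 in edgeR's quasi-likelihood test (Benjamini-Hochberg over all tested genes) in 2390 of 15949 genes, or 15%. It was positive in 1455 genes (9.12%) and negative in 935 (5.86%). PRL against Veh passed in 5039 genes in paw (31.6%), of which 2778 rose (17.4%) and 2261 fell (14.2%). In DRG it passed in 219 genes (1.37%), of which 146 rose (0.915%) and 73 fell (0.458%). In paw, DESeq2 called 2397 rises and 2965 falls, while edgeR called 2648 rises and 2524 falls with RLE scaling and 2682 rises and 2413 falls with TMM over all 24 libraries. The DRG count was 530 when DRG libraries alone were used, with 14705 genes tested, and 705 with limma voom weighted per tissue. The paw count fell to 3668 when paw libraries alone were used, with 14721 genes tested, and to 4169 with that limma voom fit. The gap between the tissues thus depends on the estimate of the spread, which all 24 libraries share in the counts given first. The percentages given first, over all tested genes, are the background against which list counts are set below. The difference passed in 3093 genes without Female paw PRL replicate 3 and in 2202 without Female DRG Veh replicate 1.

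The 2390 genes were sorted by which tissue's own change also passed. In 2129 genes (13.3% of those tested) only the paw change passed, with 1368 positive and 761 negative differences. In 63 genes (0.395%) only the DRG change passed, with 18 positive and 45 negative differences. In 23 genes (0.144%) both passed with opposite signs, and in 13 (0.0815%) both passed with the same sign but unequal size. In 162 genes (1.02%) neither tissue's own change passed. Missing the threshold in DRG does not show that a gene did not change there. The 95% interval of the DRG change lay within 1.5-fold either way in 1001 of the 1368 and 690 of the 761 genes called in paw only, and reached past that bound in the others. For genes called in DRG only, the paw interval lay within that bound in 14 of 18 and 41 of 45. Of the 116 genes called in both tissues, 93 changed in the same direction. Across the 13087 genes measured in both tissues, the paw and DRG changes had a Pearson r of 0.209 and a Spearman rho of 0.158, a description across genes, which are not independent replicates.

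**Figure D1:**
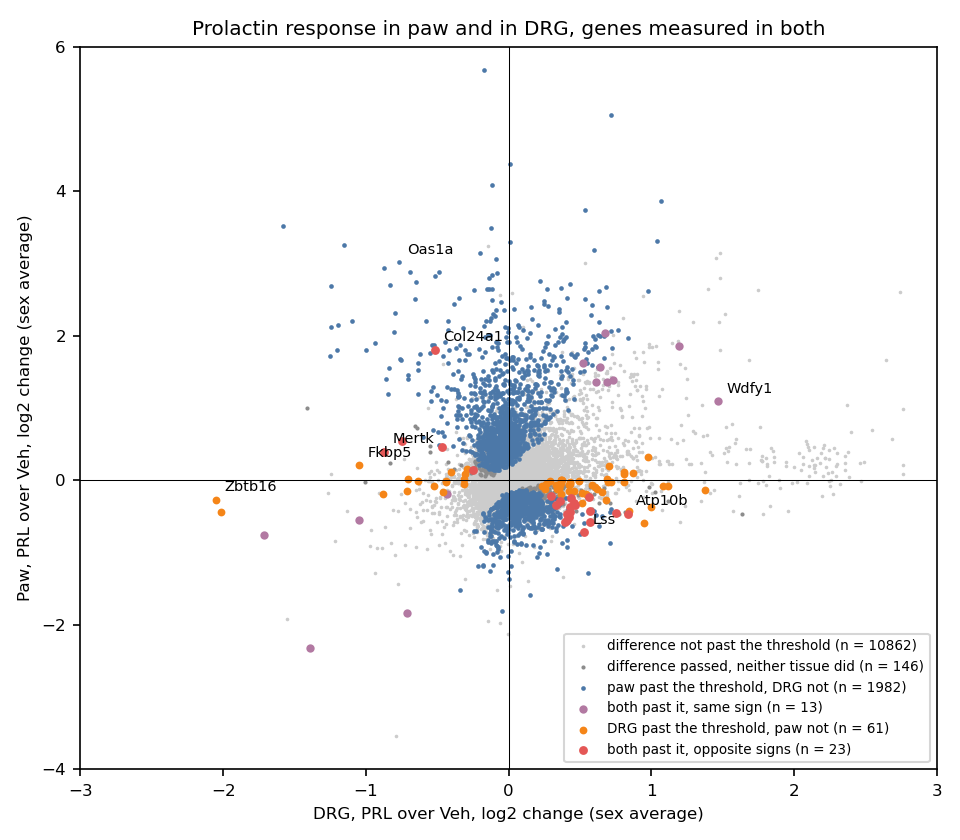
The log2 change between PRL and Veh libraries in paw (vertical axis) and in DRG (horizontal axis), averaged over both sexes, for the 13087 genes with at least 1 CPM in each tissue. Each point is a gene, coloured by whether its paw minus DRG difference passed and in which tissue its own change passed. The axes leave 7 of the genes out of view. Most coloured points spread along the vertical axis (1982 called in paw only, 61 in DRG only). The 23 genes with opposite calls lie in the upper left and lower right quadrants, most of them near the centre.

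Genes of cholesterol synthesis fell in paw, and some of them rose in DRG. Of 17 tested genes of a list for cholesterol synthesis and uptake, 15 had a negative difference (background 5.86%) and none a positive one. In paw 15 of the 17 fell (background 14.2%), and in DRG 5 rose (background 0.915%) and none fell. The list's median difference was -0.81 on the log2 scale, from medians of -0.51 in paw and 0.20 in DRG, against -0.01, 0.01 and 0.00 over all tested genes. Lss, Mvd, Insig1 and Cyp51 were among the 23 genes called in opposite directions.

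Lss, lanosterol synthase, which closes the sterol ring, had 26.9 to 54.4 CPM (median 44.5) in paw PRL libraries, against 57.5 to 82.7 CPM (median 68.3) in paw Veh libraries. DRG levels of Lss were 51.03 to 75.03 CPM (median 67.9) in DRG PRL libraries, against 40.97 to 48.4 CPM (median 45.5) in DRG Veh libraries. Every PRL library was below every Veh library in paw and above every Veh library in DRG. The difference was -1.25 ± 0.14 (SE, adjusted p = 9.04e-06), from -0.72 ± 0.10 in paw (adjusted p = 1.55e-05) and 0.53 ± 0.10 in DRG (adjusted p = 0.00694). Fdft1, squalene synthase, had 26.5 to 41.98 CPM (median 32.3) in paw PRL libraries, against 48.3 to 58.02 CPM (median 49.6) in paw Veh libraries. For Fdft1 in DRG, the values were 118 to 127 CPM (median 122) in DRG PRL libraries, against 101 to 114 CPM (median 111) in DRG Veh libraries. The PRL libraries again lay wholly below Veh in paw and wholly above it in DRG, but the DRG change of 0.17 ± 0.05 did not pass (adjusted p = 0.135). Its difference was -0.81 ± 0.08 (adjusted p = 9.73e-07).

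Cyp51, which demethylates lanosterol, had a difference of -0.93 ± 0.10, with changes of -0.51 in paw and 0.42 in DRG. Mvd, which makes isopentenyl diphosphate from mevalonate diphosphate, had -0.98 ± 0.11, with -0.58 in paw and 0.40 in DRG. Insig1, which holds the sterol sensor complex in the endoplasmic reticulum and is itself a target of it, had -0.96 ± 0.11, with -0.55 in paw and 0.41 in DRG. For these 3 genes every DRG PRL library was above every DRG Veh library, and the paw groups overlapped. The difference did not pass for Dhcr7, which makes cholesterol from its last precursor (-0.42 ± 0.14, adjusted p = 0.0505). The median difference of the list was -0.55 in females and -0.97 in males, and no test separated the sexes. Skeletal muscle genes had a median DRG change of 2.25, with none of them called. With the muscle level as a covariate the list still had 15 negative differences, of 892 among all tested genes, but 2 of its members rose in DRG. Without Female paw PRL replicate 3, 16 members had a negative difference and 16 fell in paw. In that setting 3093 differences of either sign and 5602 paw changes passed in all. With limma voom 10 members rose in DRG. DRG rises over all tested genes numbered 146 in the main fit, 74 with the covariate and 421 with limma voom, so the list's DRG count moved along with the total.

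**Figure D2:**
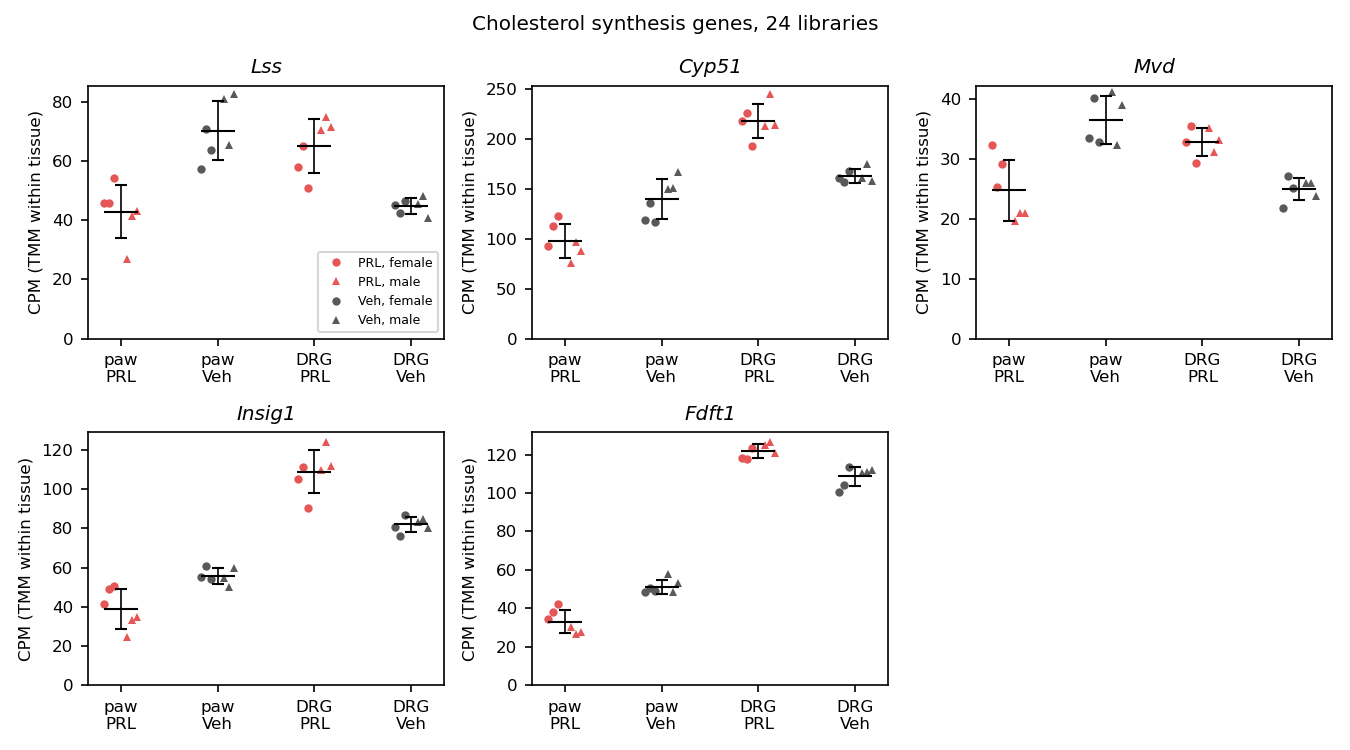
Levels of 5 genes of cholesterol synthesis or its control (Lss, Cyp51, Mvd, Insig1, Fdft1) in CPM scaled within each tissue, for paw PRL, paw Veh, DRG PRL and DRG Veh. Each point is a library (circles female, triangles male) and bars give the mean ± SD of 6 libraries. In each panel the PRL mean is below the Veh mean in paw and above it in DRG, as for Lss with medians of 44.5 and 68.3 CPM in paw and 67.9 and 45.5 CPM in DRG.

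Among the other genes called in opposite directions, 5 rose in paw and fell in DRG. Col24a1, a chain of fibrillar collagen, had 12.6 to 24.6 CPM (median 15.9) in paw PRL libraries, against 3.26 to 7.62 CPM (median 4.60) in paw Veh libraries. In DRG, Col24a1 had 54.7 to 65.6 CPM (median 59.7) in DRG PRL libraries, against 80.1 to 94.7 CPM (median 86.6) in DRG Veh libraries. The PRL and Veh libraries did not overlap in either tissue, and the difference was 2.33 ± 0.17 (adjusted p = 3.54e-08). Mertk, a receptor tyrosine kinase with which phagocytes take up dying cells, had 18.8 to 29.1 CPM (median 20.1) in paw PRL libraries, against 13.2 to 20.8 CPM (median 15.7) in paw Veh libraries. DRG levels of Mertk were 33.6 to 41.9 CPM (median 35.1) in DRG PRL libraries, against 52.9 to 73.98 CPM (median 68.8) in DRG Veh libraries. The groups overlapped in paw and were separate in DRG, where PRL was lower, and the difference was 1.27 ± 0.13 (adjusted p = 2.04e-06). Angptl4, a secreted inhibitor of lipoprotein lipase, had a difference of 1.28 ± 0.27, and its paw rise of 0.54 ± 0.20 only just passed (adjusted p = 0.0499). St6galnac3, a sialyltransferase, differed by 0.92 ± 0.16 and Fam13b by 0.39 ± 0.07.

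Other opposite genes fell in paw and rose in DRG, as the cholesterol genes did. Atp10b, a phospholipid flippase, had 39.6 to 78.7 CPM (median 55.3) in paw PRL libraries, against 65.4 to 88.6 CPM (median 72.9) in paw Veh libraries. For Atp10b in DRG, the values were 8.20 to 10.98 CPM (median 10.1) in DRG PRL libraries, against 4.48 to 6.29 CPM (median 5.70) in DRG Veh libraries. Its groups overlapped in paw only, and its difference was -1.30 ± 0.14 (adjusted p = 8.41e-06). Gldn, or gliomedin, with which Schwann cells help to assemble nodes of Ranvier, had 19.6 to 30.1 CPM (median 25.9) in paw PRL libraries, against 32.6 to 39.4 CPM (median 34.97) in paw Veh libraries. In DRG, Gldn had 155 to 203 CPM (median 168) in DRG PRL libraries, against 109 to 147 CPM (median 131) in DRG Veh libraries. The groups were separate in both tissues and the difference was -0.88 ± 0.13 (adjusted p = 0.000107). Dusp14 and Dusp18, dual-specificity phosphatases, differed by -1.21 ± 0.21 and -0.80 ± 0.12. Cdh3, or P-cadherin of epithelia, differed by -0.999 ± 0.16, and Cyp26b1, which degrades retinoic acid, by -0.88 ± 0.12. Secisbp2l differed by -0.80 ± 0.13, Cnksr3 by -0.78 ± 0.12 and Tlcd1 by -0.81 ± 0.14. Emp2, a membrane protein of epithelia, differed by -0.68 ± 0.11, Ctnnal1, related to alpha-catenin, by -0.69 ± 0.11, the integrin subunit Itga6 by -0.65 ± 0.11 and the ephrin receptor Epha4 by -0.52 ± 0.10. All 23 opposite genes had the sign of their mean difference in each sex, which the choice by the mean favours. The count of opposite genes was 12 with the muscle covariate, 46 with DESeq2 and 66 with limma voom, and it lay between 10 and 32 when single libraries were left out.

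Interferon-induced genes rose in paw, and none was called in DRG. All 20 tested members of an interferon list had a positive difference (background 9.12%), all 20 rose in paw (background 17.4%) and none passed in DRG in either direction (background 1.37%). The medians were 2.80 for the difference, 2.20 in paw and -0.60 in DRG. Oas1a, an antiviral enzyme that senses double-stranded RNA, had 1.41 to 5.61 CPM (median 3.55) in paw PRL libraries, against 0.222 to 0.793 CPM (median 0.416) in paw Veh libraries. DRG levels of Oas1a were 0.419 to 1.25 CPM (median 0.915) in DRG PRL libraries, against 0.878 to 3.03 CPM (median 1.18) in DRG Veh libraries. PRL was above Veh in every paw comparison and the DRG groups overlapped, with a difference of 3.79 ± 0.52 (adjusted p = 6.63e-05). Ifi44 differed by 3.81 ± 0.70. Cxcl10, a chemokine induced by interferon, had 1.60 to 7.04 CPM (median 6.35) in paw PRL libraries, against 0.311 to 1.65 CPM (median 0.679) in paw Veh libraries, where the groups overlapped. For Cxcl10 in DRG, the values were 1.69 to 5.08 CPM (median 2.64) in DRG PRL libraries, against 1.57 to 23.6 CPM (median 3.34) in DRG Veh libraries. Its difference was 3.93 ± 0.81 (adjusted p = 0.00257). That call held whichever single library was left out, but not in limma voom (adjusted p = 0.056). Female DRG Veh replicate 1 set the upper end of the DRG Veh range of such genes, with 135 CPM of Ifit1 against 16.1 to 40.7 in the other DRG Veh libraries. Without that library all 20 members still had a positive difference, with a median of 2.34, and the DRG median was -0.04. In limma voom, 18 of the 20 differences and 17 of the paw rises passed, of 2264 differences and 2211 paw rises over all tested genes. Members of the Oas and Ifit families share sequence, so reads may be split among them.

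The sequences just upstream of these genes are shown because interferon-induced genes carry a known promoter element to which interferon regulatory factors bind. RefSeq promoters (GRCm38.p6, 250 bases before to 50 after the start, 300 in all) were matched by symbol for 12389 of the 15949 tested genes. The pattern searched, on both strands, was GAAA, then any 2 bases, then GAAA, and overlapping matches were each counted. It stood in 9 of the 13 interferon list promoters that could be matched (69.2%), against 2.93% of all matched promoters. Among genes called in paw only, it stood in 79 of 1062 promoters with a positive difference (7.44%) and in 9 of 590 with a negative one (1.53%). The pattern TTCNNNGAA, which STAT proteins bind and whose matches can overlap it, stood in 8.47% of the positive and 3.39% of the negative promoters, against 6.84% of all. A match is a description and not a site of binding. The promoters of Isg15, a ubiquitin-like modifier, of Oas1a and of Ifit3, an antiviral protein, hold 3, 2 and 2 matches to the GAAA pair, marked in capitals.
Isg15, chr4:156200769-156201068, minus strand: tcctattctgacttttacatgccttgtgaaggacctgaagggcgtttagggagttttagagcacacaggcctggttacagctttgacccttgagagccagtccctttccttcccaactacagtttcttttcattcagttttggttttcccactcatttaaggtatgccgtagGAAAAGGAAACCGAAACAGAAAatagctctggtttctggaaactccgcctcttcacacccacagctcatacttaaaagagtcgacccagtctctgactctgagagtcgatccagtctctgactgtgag
Oas1a, chr5:120907476-120907775, minus strand: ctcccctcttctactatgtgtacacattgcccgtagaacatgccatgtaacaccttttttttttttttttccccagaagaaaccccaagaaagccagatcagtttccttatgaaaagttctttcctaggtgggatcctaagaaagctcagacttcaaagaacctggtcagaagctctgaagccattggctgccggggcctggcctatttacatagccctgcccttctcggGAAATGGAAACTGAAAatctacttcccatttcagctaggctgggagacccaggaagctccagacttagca
Ifit3, chr19:34583279-34583578, plus strand: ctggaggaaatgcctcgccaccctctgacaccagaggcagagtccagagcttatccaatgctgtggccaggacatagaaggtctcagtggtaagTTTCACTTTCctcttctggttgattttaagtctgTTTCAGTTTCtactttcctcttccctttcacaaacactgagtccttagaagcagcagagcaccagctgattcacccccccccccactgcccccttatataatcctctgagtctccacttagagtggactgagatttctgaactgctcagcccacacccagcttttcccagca

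Genes of antigen presentation and of macrophages rose in paw along with them. All 15 tested antigen presentation genes had a positive difference (background 9.12%), all 15 rose in paw (17.4%) and none passed in DRG (1.37%). The list's medians were 1.68 for the difference, 1.46 in paw and -0.24 in DRG. H2-Aa, a chain of MHC class II, had 276 to 354 CPM (median 329) in paw PRL libraries, against 57.04 to 124 CPM (median 97.3) in paw Veh libraries. In DRG, H2-Aa had 34.3 to 56.9 CPM (median 47.7) in DRG PRL libraries, against 38.4 to 124 CPM (median 55.6) in DRG Veh libraries. The paw ranges were far apart and the DRG ranges overlapped, with a difference of 2.22 ± 0.23 (adjusted p = 4.36e-06). Without Female DRG Veh replicate 1, all 15 remained positive with a median of 1.33 and a DRG median of 0.15. Classical MHC class I genes are near-identical to one another, so their own counts are uncertain.

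Of 21 macrophage genes, 16 had a positive difference (background 9.12%), 20 rose in paw (17.4%), 1 fell in paw (14.2%) and 1 fell in DRG (0.458%). The one that fell in both was Cd163, a scavenger receptor that glucocorticoids induce, with changes of -1.04 ± 0.18 in paw and -0.79 ± 0.18 in DRG. Ctss, a lysosomal protease of antigen-presenting cells, had 296 to 541 CPM (median 429.6) in paw PRL libraries, against 68.9 to 99.9 CPM (median 87.5) in paw Veh libraries. DRG levels of Ctss were 12.3 to 22.3 CPM (median 18.99) in DRG PRL libraries, against 11.3 to 48.2 CPM (median 15.9) in DRG Veh libraries. Only the paw groups were separate, and the difference was 2.38 ± 0.33 (adjusted p = 7.13e-05). Emr1, the macrophage surface protein F4/80, had 62.4 to 108 CPM (median 96.6) in paw PRL libraries, against 15.8 to 37.2 CPM (median 22.02) in paw Veh libraries. For Emr1 in DRG, the values were 9.35 to 19.4 CPM (median 13.9) in DRG PRL libraries, against 7.52 to 17.9 CPM (median 10.1) in DRG Veh libraries. Its difference was 1.62 ± 0.26 (adjusted p = 0.000353). Aif1, which bundles actin in macrophages, differed by 2.94 ± 0.49. Summed over the list, macrophage genes took 1844 to 3062 CPM in paw PRL libraries, 690.2 to 1329.6 CPM in paw Veh libraries, 268 to 535 CPM in DRG PRL libraries and 224 to 582 CPM in DRG Veh libraries. These are whole tissue pieces, so more cells of a type and more RNA per cell cannot be told apart. Without Female DRG Veh replicate 1, 13 of 21 differences passed (the count over all genes is given above). With the muscle covariate 10 passed, of 2155 over all tested genes.

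Of 12 tested lymphocyte genes, of which 4 averaged at least 1 CPM in both tissues, 8 rose in paw (background 17.4%), none passed in DRG (1.37%) and 2 had a positive difference (9.12%), namely Lck, the kinase at the T cell receptor (2.33 ± 0.44), and Cd4, a coreceptor of helper T cells (2.004 ± 0.47). Of 14 tested neutrophil genes, 9 of them at 1 CPM or more in both tissues, 7 rose (17.4%) and 1 fell in paw (14.2%) and 1 rose in DRG (0.915%), and no difference passed. Of 25 tested cytokine and chemokine genes, 14 of them at that level in both tissues, 18 rose in paw (17.4%) and 1 rose in DRG (0.915%). The difference was positive in 8 (9.12%) and negative in 1 (5.86%). The negative one was Il1a, which averaged 0.148 CPM in DRG PRL and 0.0163 CPM in DRG Veh libraries, too few reads for a fold. Ccl11, the eosinophil chemoattractant eotaxin, had 39.97 to 81.98 CPM (median 62.2) in paw PRL libraries, against 12.4 to 22.6 CPM (median 16.2) in paw Veh libraries. In DRG, Ccl11 had 23.1 to 31.2 CPM (median 25.5) in DRG PRL libraries, against 16.03 to 30.04 CPM (median 17.7) in DRG Veh libraries. The paw groups were separate and the difference was 1.54 ± 0.21 (adjusted p = 6.2e-05). Cxcl16 differed by 1.41 ± 0.25 and Ccl9 by 1.59 ± 0.30. Cxcl9, which reached down to 0 CPM among paw Veh libraries, differed by 4.42 ± 1.22, a value that lost its call in 2 of the alternative settings.

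**Figure D3:**
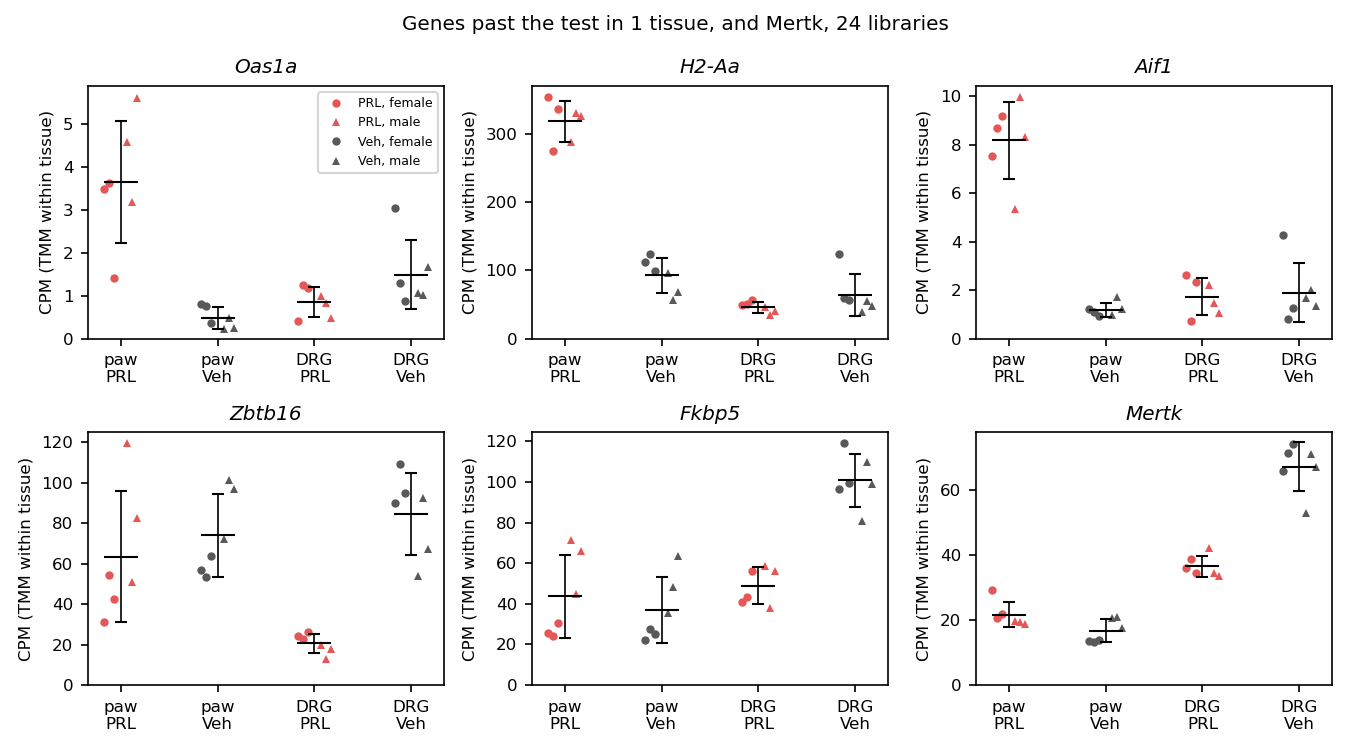
Levels of 6 genes in CPM scaled within each tissue, for paw PRL, paw Veh, DRG PRL and DRG Veh, with each point a library (circles female, triangles male) and bars the mean ± SD of 6 libraries. Oas1a, H2-Aa and Aif1 are higher in PRL than in Veh libraries in paw and not called in DRG. Zbtb16 and Fkbp5 are lower in PRL libraries in DRG and not called in paw, and Mertk is higher in paw PRL and lower in DRG PRL libraries.

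The next genes had large positive differences among those called in paw only and measured in both tissues. The 1 CPM limit for being measured is a mean over PRL and Veh libraries of a tissue together. A gene low in paw Veh libraries, such as Col6a5, could thus pass it through its PRL libraries. Low Veh levels among these genes are therefore not a result. Col6a5, a chain of collagen VI, had 94.9 to 308 CPM (median 111) in paw PRL libraries, against 0.148 to 1.41 CPM (median 0.872) in paw Veh libraries. DRG levels of Col6a5 were 8.94 to 37.3 CPM (median 15.6) in DRG PRL libraries, against 7.53 to 31.9 CPM (median 10.8) in DRG Veh libraries. The paw groups were separate, the DRG groups overlapped, and the difference was 7.64 ± 0.76 (adjusted p = 2.17e-06). Col6a6, a chain of the same collagen, differed by 4.34 ± 0.67. Car4, a carbonic anhydrase of cell surfaces, differed by 5.86 ± 0.61, Slc13a3, a carrier of dicarboxylates, by 4.20 ± 0.42, and Retnla, a secreted product of alternatively activated macrophages, by 4.38 ± 0.71. The 95% interval of the DRG change of Retnla, -1.11 to 1.12, was wide.

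Matrix genes of fibroblasts rose in both tissues, and more in paw for some. Of 20 tested list genes, 17 rose in paw (background 17.4%) and 10 in DRG (0.915%), and none fell. The difference was positive in 8 (9.12%) and negative in 1 (5.86%), with medians of 0.56 for the difference, 1.25 in paw and 0.62 in DRG. Postn, or periostin, had 888 to 1925 CPM (median 1275) in paw PRL libraries, against 189 to 247 CPM (median 210.4) in paw Veh libraries. For Postn in DRG, the values were 30.8 to 65.6 CPM (median 51.3) in DRG PRL libraries, against 27.1 to 68.4 CPM (median 35.5) in DRG Veh libraries. Only the paw groups were separate, with a difference of 2.30 ± 0.29 (adjusted p = 3.02e-05). Lox, which cross-links collagen and elastin, differed by 1.09 ± 0.22. Lum, or lumican, was the member with a negative difference (-0.65 ± 0.20). It had 137 to 206 CPM (median 181) in paw PRL libraries, against 117 to 198 CPM (median 125) in paw Veh libraries. In DRG, Lum had 147 to 230.1 CPM (median 164) in DRG PRL libraries, against 59.8 to 122 CPM (median 94.5) in DRG Veh libraries. For this gene only the DRG change was called and only the DRG groups were separate.

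Among the 13 genes that changed in the same direction by unequal amounts, the collagen chains Col6a2, Col6a1, Col5a2 and Col14a1 rose more in paw. Col6a2 had 934 to 1482 CPM (median 1125) in paw PRL libraries, against 226 to 339 CPM (median 267) in paw Veh libraries. DRG levels of Col6a2 were 102 to 178 CPM (median 148) in DRG PRL libraries, against 56.9 to 131 CPM (median 80.8) in DRG Veh libraries. Its paw groups were separate and its DRG groups overlapped, with a difference of 1.36 ± 0.21 (adjusted p = 0.000229). Fscn1, an actin-bundling protein, rose by 1.62 in paw and 0.52 in DRG, a difference of 1.10 ± 0.17. Fgfbp3, which binds and carries fibroblast growth factors, fell by 1.84 in paw and 0.71 in DRG, a difference of -1.13 ± 0.23. Ranbp9 fell by 0.19 in paw and by 0.43 in DRG. Wdfy1 differed by -0.37 ± 0.08 (adjusted p = 0.00388) and rose more in DRG. The difference of Nnt, 0.67 ± 0.20 (adjusted p = 0.031), lost its call in 11 of the alternatives.

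The following genes fell in paw, were not called in DRG and were taken by the size of their difference. Lgr5, a receptor of the hair follicle's stem cells, had 5.01 to 5.94 CPM (median 5.71) in paw PRL libraries, against 8.15 to 19.5 CPM (median 13.98) in paw Veh libraries. For Lgr5 in DRG, the values were 16.6 to 23.4 CPM (median 19.2) in DRG PRL libraries, against 13.3 to 18.4 CPM (median 15.8) in DRG Veh libraries. The paw groups were separate and the DRG groups overlapped, with a difference of -1.57 ± 0.18 (adjusted p = 1.19e-05). Elovl6, a fatty acid elongase, had 89.6 to 417 CPM (median 309) in paw PRL libraries, against 402 to 688 CPM (median 516) in paw Veh libraries. In DRG, Elovl6 had 269 to 343 CPM (median 303) in DRG PRL libraries, against 212 to 254 CPM (median 230.1) in DRG Veh libraries. The DRG change of 0.41 ± 0.19 did not pass (adjusted p = 0.356) although the PRL libraries lay above the Veh libraries, and the difference was -1.33 ± 0.27 (adjusted p = 0.00215). Mfsd2a, a carrier of lysolipids, had 23.2 to 65.5 CPM (median 37.5) in paw PRL libraries, against 72.4 to 93.04 CPM (median 82.6) in paw Veh libraries. Its paw groups were separate, and the difference was -1.29 ± 0.17. Slc22a3, a carrier of organic cations, differed by -1.85 ± 0.36, Gsta3, a glutathione transferase, by -1.76 ± 0.29, Syt13, a synaptotagmin, by -1.74 ± 0.41, Arhgef16, an exchange factor of small GTPases, by -1.58 ± 0.30 and Bmp4, a growth factor, by -1.27 ± 0.25.

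Genes of the circadian clock had a negative difference in 4 of 17 cases (background 5.86%) and a positive one in none (9.12%). In paw 3 of the list rose (17.4%) and 7 fell (14.2%), and in DRG 1 fell (0.458%). Clock, a core activator of the rhythm, had 213 to 289 CPM (median 235) in paw PRL libraries, against 295 to 378 CPM (median 334) in paw Veh libraries. DRG levels of Clock were 135 to 154 CPM (median 144) in DRG PRL libraries, against 149 to 164 CPM (median 152) in DRG Veh libraries. The paw groups were separate and the difference was -0.38 ± 0.08 (adjusted p = 0.00261). Npas2, which can replace it, differed by -1.004 ± 0.22, and their partner Arntl by -0.69 ± 0.20. The labels give no time of day for any library.

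Genes induced by glucocorticoids fell in DRG, and several of them were not called in paw. Of 19 tested list genes, 14 fell in DRG (background 0.458%) and 12 fell in paw (14.2%), and none rose in either tissue. The difference was positive in 7 (9.12%) and negative in 1 (5.86%), the phosphatase gene Dusp1 (-0.88 ± 0.26), with medians of 0.27 for the difference, -0.54 in paw and -0.82 in DRG. Zbtb16, a zinc-finger transcription factor, had 30.9 to 119 CPM (median 52.7) in paw PRL libraries, against 53.5 to 101 CPM (median 67.9) in paw Veh libraries. For Zbtb16 in DRG, the values were 12.8 to 26.1 CPM (median 21.3) in DRG PRL libraries, against 53.7 to 109 CPM (median 90.98) in DRG Veh libraries. The paw groups overlapped, while every DRG PRL library was below every DRG Veh library. The difference was 1.78 ± 0.26 (adjusted p = 0.000107), from -0.27 ± 0.18 in paw (adjusted p = 0.264) and -2.05 ± 0.19 in DRG (adjusted p = 1.78e-06). Fkbp5, a cochaperone of the glucocorticoid receptor, had 24.04 to 71.2 CPM (median 37.6) in paw PRL libraries, against 21.9 to 63.4 CPM (median 31.5) in paw Veh libraries. In DRG, Fkbp5 had 37.9 to 58.8 CPM (median 49.7) in DRG PRL libraries, against 80.8 to 119 CPM (median 99.4) in DRG Veh libraries. It too was separate in DRG only, with a difference of 1.25 ± 0.21 (adjusted p = 0.000429). Hif3a, a relative of the hypoxia-inducible factors, differed by 1.58 ± 0.41, Arrdc2, an arrestin-like protein, by 0.72 ± 0.16 and Nfkbia, the inhibitor of NF-kappaB, by 0.56 ± 0.17. With the muscle covariate 11 of the list fell in DRG, while DRG falls over all tested genes went from 73 to 40.

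Mt2, a metallothionein that binds zinc and copper, and Map3k6, a stress kinase, both of that list, fell in both tissues and more in DRG, with differences of 0.95 ± 0.28 and 0.50 ± 0.17 (adjusted p = 0.0478 for the second). The pattern GNACA, then any 3 bases, then TGTNC, to which the glucocorticoid receptor binds, stood in 2 of the list's 17 matched promoters (11.8%), those of Mt1 and Map3k6, against 0.396% of all. Both strands were searched. The same pattern stood in 0 of 14 matched promoters of genes called in DRG only with a positive difference and in 0 of 33 with a negative one. The pattern TCACNCCAC, bound by the sterol regulatory factors, stood in 0 of 10 matched promoters of the cholesterol list and in 0 of 14 of the genes that fell in paw and rose in DRG, against 1.17% of all. With so few promoters and a fixed pattern, the lack of matches does not show that these genes lack such elements. TTCNNNGAA stood in 3 of the 14 promoters of genes called in DRG only with a positive difference (21.4%) and in 4 of the 33 with a negative one (12.1%), against 6.84% of all. The promoter of Map3k6 is given with its match in capitals, from RefSeq on GRCm38.p6.
Map3k6, chr4:133240568-133240867, plus strand: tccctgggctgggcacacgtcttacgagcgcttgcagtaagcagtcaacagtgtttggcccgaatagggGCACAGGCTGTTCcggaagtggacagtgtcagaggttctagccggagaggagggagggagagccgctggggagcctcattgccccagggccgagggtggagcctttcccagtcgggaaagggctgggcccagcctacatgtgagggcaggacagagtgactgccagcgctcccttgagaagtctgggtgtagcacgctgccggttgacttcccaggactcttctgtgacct

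Other genes with a DRG fall and no paw call included Arid5b, a chromatin regulator. It had 115 to 156 CPM (median 127) in paw PRL libraries, against 134 to 161 CPM (median 148) in paw Veh libraries. DRG levels of Arid5b were 41.6 to 48.8 CPM (median 44.7) in DRG PRL libraries, against 69.2 to 92.3 CPM (median 87.7) in DRG Veh libraries. The difference was 0.69 ± 0.10 (adjusted p = 0.00017), and only the DRG groups were separate. Hal, histidine ammonia-lyase, differed by 0.63 ± 0.17 and Bcl6, a transcriptional repressor that STAT5 is known to repress, by 0.45 ± 0.09, with -0.07 in paw and -0.52 in DRG.

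The genes that rose in DRG and were not called in paw numbered 45 and included myelin and hedgehog pathway genes, which were picked out after their values were seen. Pmp22, a protein of peripheral myelin, had 147 to 212 CPM (median 163) in paw PRL libraries, against 147 to 194 CPM (median 180.3) in paw Veh libraries. For Pmp22 in DRG, the values were 4759 to 6089 CPM (median 5426) in DRG PRL libraries, against 3048 to 4427 CPM (median 3439) in DRG Veh libraries. Every DRG PRL library was above every DRG Veh library and the paw groups overlapped, with a difference of -0.65 ± 0.15 (adjusted p = 0.00476). Pmp2, a fatty acid-binding protein of myelin, differed by -1.27 ± 0.35 and lost its call in 2 alternatives. Ugt8a, which makes the galactolipids of myelin, differed by -0.74 ± 0.22. On the list for Schwann cells and satellite glia as a whole, 1 of 17 genes rose in DRG (background 0.915%), 3 fell in paw (14.2%) and 2 had a negative difference (5.86%), Pmp22 and the neuregulin receptor Erbb3 (-0.38 ± 0.10).

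Ptch1, the main receptor for hedgehog proteins, differed by -0.48 ± 0.13 and Smo, the transducer it restrains, by -0.43 ± 0.11, and for both the DRG groups overlapped. Eln, or elastin, differed by -1.37 ± 0.32, Ltb4r1, a leukotriene receptor, by -1.51 ± 0.38, Tuba8, an alpha-tubulin, by -1.17 ± 0.26 and Col4a5, a basement membrane collagen, by -0.96 ± 0.19. The count of genes called in DRG only was 63, and it was 32 with the muscle covariate, 106 with DESeq2, 121 with limma voom and 30 to 71 when single libraries were left out.

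**Figure D4:**
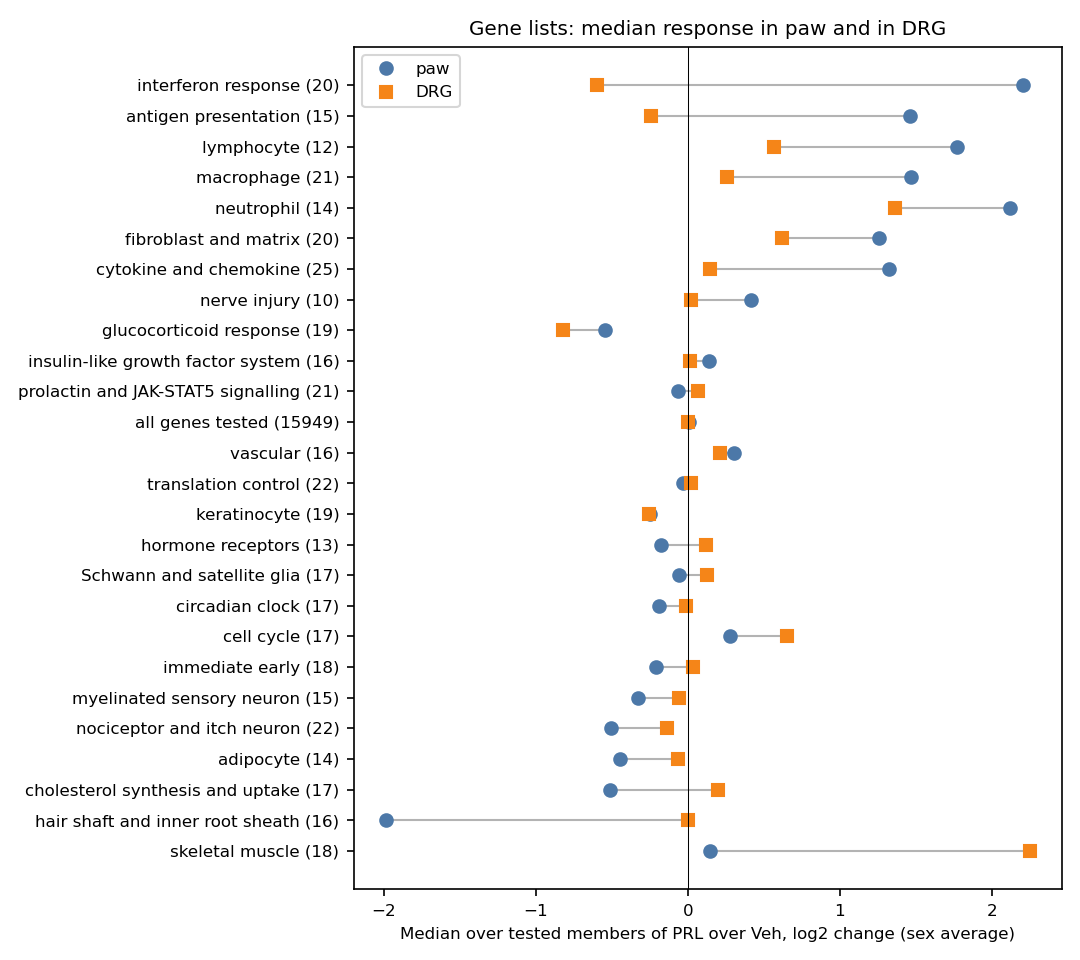
Median log2 change between PRL and Veh libraries in paw (circles) and in DRG (squares) for the gene lists, one list per row. The substrain, erythrocyte and sex check lists are not drawn. The interferon, antigen presentation and macrophage lists lie far to the right in paw and near 0 or below it in DRG (medians of 2.20 and -0.60 for interferon), and the cholesterol list lies on opposite sides of 0 (-0.51 and 0.20).

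The prolactin receptor itself was lower in PRL paws and was not called in DRG. Prlr had 48.96 to 98.8 CPM (median 51.8) in paw PRL libraries, against 67.6 to 100.1 CPM (median 80.9) in paw Veh libraries. DRG levels of Prlr were 12.5 to 16.8 CPM (median 14.6) in DRG PRL libraries, against 11.3 to 15.7 CPM (median 13.1) in DRG Veh libraries. The groups overlapped in both tissues, and the highest paw PRL value came from Female paw PRL replicate 3. The difference was -0.57 ± 0.18 (adjusted p = 0.0371), from -0.44 ± 0.12 in paw (adjusted p = 0.00801) and 0.13 ± 0.13 in DRG (adjusted p = 0.764, 95% interval -0.15 to 0.41). Leaving out a single library ended this call in 11 cases. On the list for prolactin and JAK-STAT5 signalling, 4 of 21 tested genes had a positive difference (background 9.12%) and 2 a negative one (5.86%). In paw 5 rose (17.4%) and 5 fell (14.2%), and in DRG 1 rose (0.915%) and 2 fell (0.458%). Jak2, the receptor's kinase, differed by 0.43 ± 0.10, Socs1, a feedback inhibitor of JAK kinases, by 1.45 ± 0.41 and Myc, a growth regulator, by -0.81 ± 0.12. The difference did not pass for Stat5a (-0.24 ± 0.19, adjusted p = 0.449), Stat5b (0.14 ± 0.15, adjusted p = 0.597), Socs2 (0.33 ± 0.24, adjusted p = 0.388) or Cish (-0.13 ± 0.24, adjusted p = 0.8), the usual targets of STAT5 among them.

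Igf1, the growth factor whose liver form is controlled through STAT5, rose in both tissues. It had 229 to 316 CPM (median 271) in paw PRL libraries, against 85.5 to 151 CPM (median 129) in paw Veh libraries. For Igf1 in DRG, the values were 35.9 to 79.5 CPM (median 52.8) in DRG PRL libraries, against 20.4 to 42.4 CPM (median 26.6) in DRG Veh libraries. The groups were separate in paw and overlapped in DRG, and the difference of 0.23 ± 0.19 did not pass (adjusted p = 0.466). Of 16 tested genes of the insulin-like growth factor system, 2 had a positive (background 9.12%) and 2 a negative difference (5.86%), the negative ones being Pappa, a protease that frees the factor from its binding proteins (-0.57 ± 0.14), and Pappa2, its relative (-0.88 ± 0.26).

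Of 22 tested nociceptor genes only 6 averaged at least 1 CPM in paw as well as in DRG, and the others passed the filter through DRG. Over all 22, 2 had a positive (background 9.12%) and 2 a negative difference (5.86%), 2 rose (17.4%) and 3 fell in paw (14.2%), and 1 fell in DRG (0.458%), so nothing is read from the paw counts. Ret, a receptor for neurotrophic factors, had 16.7 to 42.5 CPM (median 35.7) in paw PRL libraries, against 10.2 to 18.5 CPM (median 13.7) in paw Veh libraries. In DRG, Ret had 581 to 709.8 CPM (median 620.5) in DRG PRL libraries, against 594 to 787 CPM (median 686) in DRG Veh libraries. Its groups overlapped in both tissues, and the difference was 1.34 ± 0.19 (adjusted p = 0.000113). Gfra2, a coreceptor of it, differed by 0.99 ± 0.15. The negative ones were Prph, an intermediate filament protein of peripheral neurons (-0.74 ± 0.21, from at most 1.58 CPM in paw PRL and 2.20 CPM in paw Veh libraries, and with an adjusted p of 0.371 in limma voom), and Prdm12, a regulator of nociceptor identity, which had no read in any paw PRL library and at most 0.353 CPM in paw Veh libraries. For the hair follicle list 9 of 16 tested genes fell in paw in the sex average (background 14.2%). The list's mean level was -0.91 log2 CPM (SD 1.76) in male paw PRL and 3.75 (SD 0.64) in male paw Veh libraries. In females it was 1.57 (SD 1.74) in paw PRL and 1.11 (SD 2.29) in paw Veh libraries, so the mean fell in males only. Only 2 of the 16 averaged at least 1 CPM in both tissues, so nothing is read from their paw minus DRG differences, none of which passed. None of 18 skeletal muscle genes passed in any of the contrasts, with medians of 0.15 in paw, 2.25 in DRG and -2.13 for the difference (-4.05 in females and -0.22 in males). The part of muscle tissue in the other differences was not tested beyond the covariate values given above.

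Of 22 tested regulators of translation, which the series' title names, 2 had a positive (background 9.12%) and 2 a negative difference (5.86%), 3 rose (17.4%) and 4 fell in paw (14.2%), and none passed in DRG (1.37%), shares near the background, with a median difference of -0.04. Eif2ak2, an interferon-induced kinase that halts initiation, had 33.9 to 49.8 CPM (median 41.7) in paw PRL libraries, against 23.4 to 33.9 CPM (median 27.6) in paw Veh libraries. DRG levels of Eif2ak2 were 36.6 to 43.2 CPM (median 41.7) in DRG PRL libraries, against 38.4 to 75.6 CPM (median 41.7) in DRG Veh libraries. The paw groups were separate and the difference was 0.79 ± 0.17 (adjusted p = 0.00412). Cpeb1, a regulator of cytoplasmic polyadenylation, differed by 0.47 ± 0.15, its relative Cpeb2 by -0.57 ± 0.12, and Eif4ebp2, an inhibitor of cap-dependent initiation, by -0.38 ± 0.13.

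In females alone the difference passed in 483 genes (3.03%), of which 406 were positive (2.55%) and 77 negative (0.483%). In males alone it passed in 1681 (10.5%), of which 925 were positive (5.8%) and 756 negative (4.74%). The female count was 893 without Female paw PRL replicate 3 and 316 without Female DRG Veh replicate 1. In paw PRL against Veh passed in 1768 genes in females (11.1%) and 4619 in males (29%), and in DRG in 43 (0.27%) and 34 (0.213%). The test of the female minus male difference itself passed in 0 genes (0%) in edgeR and in 0 with limma voom, while DESeq2 called 12. At an unadjusted p under 0.05 there were 1474 genes in edgeR, and the smallest adjusted p was 0.199. The counts in each sex therefore do not show that the sexes differ. The 5 genes with the smallest p were Zfp93, with -0.91 in females and 0.89 in males, Nrg1, a growth factor for Schwann cells, with 1.42 and -0.69, Gnal, a G protein subunit, with -0.19 and -1.82, Ndst3, an enzyme of heparan sulfate synthesis, with 0.46 and -1.21, and Tcta, with -0.30 and 0.49, the female value first.

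Of the 2390 genes with a called difference, 165 averaged under 1 CPM in paw or DRG, among 2862 such genes tested. Gabrb2, a GABA receptor subunit, had 1.10 to 2.82 CPM (median 1.63) in paw PRL libraries, against 0 to 0.441 CPM (median 0.125) in paw Veh libraries. For Gabrb2 in DRG, the values were 26.6 to 31.002 CPM (median 30.05) in DRG PRL libraries, against 27.2 to 33.4 CPM (median 30.6) in DRG Veh libraries. The paw values amounted to few reads, although every PRL library was above every Veh library, and the difference was 3.57 ± 0.33 (adjusted p = 1.02e-06). Batf3, a transcription factor of dendritic cells, had 2.21 to 3.71 CPM (median 2.96) in paw PRL libraries, against 0.148 to 0.617 CPM (median 0.346) in paw Veh libraries, and a difference of 3.66 ± 0.47. Mirg, a noncoding RNA, differed by 1.99 ± 0.26. Pydc4, an interferon-induced gene, had 0.563 to 2.23 CPM (median 1.11) in paw PRL libraries, against 0 to 0.183 CPM (median 0.0420) in paw Veh libraries, and a difference of 4.99 ± 0.74 (adjusted p = 0.000216). The paw Veh values of Gabrb2 and of Pydc4 reached down to 0, so the size of both differences rests on few reads.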

How the data were processed

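RNA of paw and DRG was depleted of rRNA, made into stranded libraries and read from one end at 50 nt, per the labels' protocols. The submitters' processing notes name bcl2fastq, TopHat2, HTSeq and the build mm9, with no versions, and the strand setting of the counting is not given in the sources used here, so reads of a gene and an overlapping antisense gene may be mixed. The values are raw counts per gene as the authors deposited them, with 5 summary lines per library that name no gene. Those lines stayed out of library sizes. Gene reads made up 26.4% to 28.1% of all reads in DRG and 13.6% to 26.2% in paw, and 34.5% to 35.8% in DRG and 30.6% to 33.9% in paw lay in no annotated gene. The 13.6% came from Male paw Veh replicate 2, and the other paw libraries had 22.3% or more in genes.

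From these counts, genes were kept by edgeR's filterByExpr and scaled by TMM within each tissue, so a CPM level in paw and one in DRG are not compared. One mean per group was fitted in edgeR 4.0.16 (R 4.3.3) over all 24 libraries, which share one estimate of the spread, and contrasts were tested by the quasi-likelihood F test with Benjamini-Hochberg adjustment over all 15949 genes at 0.05. Log2 changes are given ± SE. The classes used the same fit. DESeq2 1.42.0, limma 3.58.1 (voom), other scalings and filters, a muscle covariate, replicate blocks and single libraries left out were the alternatives. The 6 PRL_Sh libraries were left out. Counts were simulated for this contrast over 15949 genes, with 100 genes changed 2-fold and 100 changed 4-fold in paw PRL libraries. On them edgeR recovered 78% of genes changed 2-fold and 98% of those changed 4-fold, with 8 false among 184 called. Changed genes had at least 1 CPM in both tissues, genes were drawn independently, and each gene's spread was the same in both tissues. No simulated library stood apart, so the false share is not an estimate for the calls reported here.

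Named genes were Prlr, the largest differences of each class among genes of at least 1 CPM in both tissues, up to 3 genes per list by p and up to 5 genes under that level. Some genes that fall under this rule are not reported here. Others are marked as picked after their values were seen, or are members of a list. The genes, 28 lists and comparisons were chosen with earlier results of these data known, so a list is not independent evidence of its direction. List counts and medians are descriptions with no test of the list. The labels give no batch or date. Libraries of one group differed by more than sampling noise (chi-square per degree of freedom 2.42 to 79.9), so none was counted as a duplicate.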

Additional observations from a re-analysis of the deposited data

Results flagged for a closer look

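The 23 genes whose PRL against Veh change passed in both tissues with opposite signs were flagged (edgeR, adjusted p under 0.05 in each tissue). Opposite calls in the same fit make it nearly certain that the tissue difference passes too. Its passing in all 23 genes therefore adds no support. In 5 of them PRL libraries were higher in paw and lower in DRG, with a paw minus DRG difference in log2 units of 2.33 for Col24a1, 1.28 for Angptl4, 1.27 for Mertk, 0.92 for St6galnac3 and 0.39 for Fam13b. Among those with PRL libraries lower in paw and higher in DRG, the difference was -1.30 for Atp10b, -1.25 for Lss, -1.21 for Dusp14, -0.999 for Cdh3, -0.98 for Mvd and -0.96 for Insig1. It was -0.93 for Cyp51, -0.88 for Cyp26b1, -0.88 for Gldn, -0.81 for Tlcd1, -0.80 for Dusp18 and -0.80 for Secisbp2l. It was -0.78 for Cnksr3, -0.69 for Ctnnal1, -0.68 for Emp2, -0.65 for Itga6 and -0.52 for Epha4. Lss, Mvd, Insig1 and Cyp51 are genes of cholesterol synthesis or its control, and the part of skeletal muscle, of substrain or of single libraries in these values was not tested beyond the alternatives given.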

How the results depend on the processing

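Counts moved by over 1.5 times as follows. With DESeq2, 423 genes passed in DRG, 754 for the female difference, 12 for female minus male, 46 as opposite and 106 in DRG only. With limma voom, 705 passed in DRG, 66 as opposite and 121 in DRG only. With the muscle covariate, 114 passed in DRG, 12 as opposite and 32 in DRG only, and 530 passed in DRG when only DRG libraries were fitted. The paw minus DRG difference was 2680 genes with DESeq2 (1473 higher, 1207 lower) and 2381 with TMM over all 24 libraries (1563 higher, 818 lower). The labels do not say whether libraries with the same replicate number are paired. Correlations of their deviations do not settle it with so few libraries per group (-0.335 to 0.463 between paw and DRG, and -0.615 to 0.0938 between PRL and Veh). A replicate block on the number gave 2298 genes for the difference, and a replicate block on sex, treatment and number gave 1796, and 252 for the female difference.

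Leaving out each library in turn gave 2024 to 3093 genes for the difference, 4254 to 5602 in paw, 106 to 285 in DRG, 264 to 893 in females, 1196 to 2054 in males, 0 to 1 for female minus male, 10 to 32 opposite, 1799 to 2762 in paw only and 30 to 71 in DRG only. The DRG count was lowest, and the opposite count 10 and the DRG only count 30, without Female DRG Veh replicate 2. DRG calls were 116 without Female DRG PRL replicate 2, 128 without Female DRG Veh replicate 3 or Male DRG PRL replicate 1, and 133 without Male DRG Veh replicate 1. Opposite genes were 14 without Female DRG PRL replicate 2 or Male DRG Veh replicate 1 and 13 without Male DRG Veh replicate 3. DRG only genes were 41 and 31 without Female DRG PRL replicates 1 and 2, 33 without Female DRG Veh replicate 3, 35 without Male DRG PRL replicate 1, and 36 and 40 without Male DRG Veh replicates 1 and 3. The female difference was 264 without Female paw PRL replicate 1, 270 and 293 without Female paw Veh replicates 3 and 2, and 274 and 276 without Female DRG PRL replicates 1 and 2. Of 98 named genes called in the difference, 77 kept the call in every alternative. Among those that did not, Scn8a, a sodium channel gene on the myelinated neuron list, lost it in 24 of 34 settings, Esr1 in 21, Cpeb1 in 13, Prlr and Nnt in 11 each, Trp63 in 8, Gal in 7 and Pappa2 in 6. Zfp93, at -0.0091 and not called, was 0.01251 with TMM over all 24 libraries and -0.1054 to 0.07143 when single libraries were left out, 10 of which turned its sign. The cause was not tested in any case. Depth of 6.87 M to 13.5 M gene reads limits genes under 1 CPM, and the 3 libraries per group limit each comparison within a sex.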

Other observations

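Of 19 tested keratinocyte genes, 2 rose (background 17.4%) and 2 fell in paw (14.2%). Only 9 of the 19 averaged at least 1 CPM in both tissues, so nothing is read from the absence of calls in DRG. A single member had a negative difference (5.86%), Trp63, the master regulator of basal keratinocytes (-0.85 ± 0.25). The 2 that rose were Krt6a (1.21 ± 0.34 in paw) and Krt16 (1.503 ± 0.39), keratins of activated epidermis. Of 16 vascular genes, 7 rose (17.4%) and 1 fell in paw (14.2%) and 2 rose in DRG (0.915%). The difference was positive in 1 (9.12%), Vwf, made by endothelium (0.52 ± 0.15). It was negative in 2 (5.86%), Acta2 (-0.71 ± 0.21) and Myh11 (-0.75 ± 0.18), contractile proteins of smooth muscle. Of 14 adipocyte genes, 2 fell in paw (14.2%), and 1 had a negative difference (5.86%), Scd1, a fatty acid desaturase (-0.59 ± 0.15). None of 3 erythrocyte genes passed in any contrast.

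Of 13 hormone receptor genes, 1 had a positive difference (background 9.12%), the estrogen receptor gene Esr1 (0.55 ± 0.18), and 1 a negative one (5.86%), Prlr. Esr1 had 12.02 to 20.5 CPM (median 18.3) in paw PRL libraries, against 9.58 to 11.99 CPM (median 10.7) in paw Veh libraries, with separate groups, and in DRG 13.7 to 27.3 CPM (median 18.1) in DRG PRL libraries, against 14.7 to 18.95 CPM (median 17.2) in DRG Veh libraries. Of 18 immediate early genes, 4 fell in paw (14.2%) and none passed in DRG (1.37%), and 1 had a negative difference (5.86%), Fosl2 (-0.49 ± 0.14). Fosb, a member of that list, had 8.88 to 469 CPM (median 24.7) in paw PRL libraries, against 81.3 to 143 CPM (median 117) in paw Veh libraries. Of 15 genes of myelinated sensory neurons, 2 had a positive (9.12%) and 2 a negative difference (5.86%). In paw 2 rose (17.4%) and 5 fell (14.2%), and none passed in DRG (1.37%). Spp1, or osteopontin, which macrophages also make, differed by 1.97 ± 0.56, and Ntrk3, the receptor for neurotrophin-3, by -0.51 ± 0.15. Of 10 tested nerve injury genes, 6 of them at 1 CPM or more in both tissues, 3 rose in paw (17.4%) and none passed in DRG (1.37%). A positive difference was called in 2 (9.12%), Sox11 (1.27 ± 0.33) and Gal. Gal had no read in paw Veh libraries and at most 0.264 CPM in paw PRL libraries. Of 17 cell cycle genes, 3 rose in paw (17.4%) and 2 in DRG (0.915%), and no difference passed.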
